A study of Mus musculus with 3 samples.

Results

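Cbx2 binding was examined at the loci of the GATA transcription factors Gata2, Gata3, Gata4, Gata5 and Gata6 in a table of Cbx2 peaks from mouse cells. A peak was taken as a member if it overlapped a fixed window of the mm9 genome around one of these genes, whatever its signal. Of the 2217 peaks in the table, 2 were members, and both lay in the Gata4 window. The windows of the other 4 genes held no listed peak. The cells were C3H10T1/2, a line of mesenchymal progenitors derived from C3H mouse embryos. The table holds 1 Cbx2 chromatin immunoprecipitation (ChIP) library from cells that stably express wild-type H3.3, a histone variant, with a FLAG-HA tag (WT), and 1 from cells named in the title for H3.3K36M, in which methionine replaces a lysine of H3.3 (K36M). The genotype label of the K36M library also reads wild-type H3.3, so its group rests on the title. The labels do not say whether each line was a clone or a pool, and a table of peaks does not allow the cell type to be checked against its markers. The comparison asked how Cbx2 is distributed in the presence of either histone. The libraries held 29278813 (WT) and 36243012 (K36M) reads, and with 1 library per group no difference could be set against a spread between replicates.

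GATA factors are zinc finger proteins that bind DNA at GATA sequences and direct the choice of cell lineage. Gata2 and Gata3 are best known from blood, with Gata2 needed for blood stem and progenitor cells and Gata3 for T cells, while Gata4, Gata5 and Gata6 act in the heart, the gut and other organs of endodermal or mesodermal origin. Genes of developmental regulators such as these are classic Polycomb targets: Polycomb repressive complex 2 trimethylates a lysine of histone H3, and Cbx2, a chromodomain subunit of Polycomb repressive complex 1, recognises that mark. In mammals, Polycomb complexes gather mostly at CpG-rich promoters of silent genes.

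The promoters of the genes without a listed peak are shown because they display the CpG content of those loci. RefSeq promoter sequences (GRCm38.p6) were at hand for 3 of the 5 genes, Gata2, Gata3 and Gata5, and were not for Gata4 and Gata6. Each line gives the 250 bases upstream of a transcription start, 5′ to 3′ on the strand of the gene, with CpG dinucleotides in capitals. The Gata2 sequence is chr6:88193641-88193890 on the plus strand, the Gata3 sequence is chr2:9878601-9878850 on the minus strand, and the Gata5 sequence is chr2:180334680-180334929 on the minus strand. These coordinates are GRCm38 and cannot be set against the mm9 windows.
Gata2 promoter: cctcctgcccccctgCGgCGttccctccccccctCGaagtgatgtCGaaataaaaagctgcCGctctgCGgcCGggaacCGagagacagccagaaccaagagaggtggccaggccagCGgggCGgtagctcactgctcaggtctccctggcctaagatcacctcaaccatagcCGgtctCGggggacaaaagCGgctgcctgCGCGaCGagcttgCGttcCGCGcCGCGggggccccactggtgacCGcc
Gata3 promoter: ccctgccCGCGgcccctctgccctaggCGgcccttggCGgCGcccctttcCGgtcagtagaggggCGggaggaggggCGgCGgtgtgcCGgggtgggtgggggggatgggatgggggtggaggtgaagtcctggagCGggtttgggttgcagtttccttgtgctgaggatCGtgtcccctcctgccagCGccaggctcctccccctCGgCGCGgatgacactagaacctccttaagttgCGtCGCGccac
Gata5 promoter: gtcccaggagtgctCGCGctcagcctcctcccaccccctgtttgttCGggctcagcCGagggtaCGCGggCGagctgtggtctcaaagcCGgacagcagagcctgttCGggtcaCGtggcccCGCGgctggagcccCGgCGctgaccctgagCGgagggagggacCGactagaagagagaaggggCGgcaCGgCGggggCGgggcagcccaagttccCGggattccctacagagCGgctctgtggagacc
The Gata2 promoter held 22 CpG dinucleotides and the Gata5 promoter also 22, each more than 85.2% of the 32841 promoters measured in the same way. The Gata3 promoter held 19, more than 80.3% of promoters. A second Gata2 promoter in the same table, further downstream, held 24, more than 88.0% of promoters. The median promoter held 6 CpG dinucleotides. All 4 Gata promoters thus lay above the upper quartile of 16. The table listed no Cbx2 peak in any of these 3 windows, and a link to CpG content was not tested, with no Gata4 promoter to compare. The letters GATA, searched on both strands (GATA or TATC), occurred in none of the 4 and in 53.6% of all promoters. The 4 had a GC content of 67.2% to 74%, against a median of 52.4%, and the search was not adjusted for it. It describes these letters in these stretches only.

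The Gata4 window (mm9, chromosome 14 from 63780000 to 63900000) held a pair of peaks 12.2 kb apart. The larger, 6000 bp long, ran from 63880800 to 63886799, and the smaller, 1600 bp long, from 63867000 to 63868599. No mm9 annotation was used here, so whether either covers the promoter, an exon or an intron of Gata4 was not determined. In RefSeq's GRCm38 gene order the protein-coding neighbours of Gata4 are Neil2 and Blk.

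The 6000 bp peak was one of the stronger Cbx2 sites in the table. It held 954 reads in WT, or 32.6 reads per 1000000 library reads (RPM; 95% exact Poisson interval 30.5 to 34.7). This was rank 52 of 2217 peaks, against a median of 3.83 RPM. In length it exceeded 90.3% of peaks, and RPM sums over that length. Read density, which takes length out, was 31.8 reads per 200 bp in WT, rank 56 of all peaks and rank 2 among the chromosome 14 peaks, against a median of 13.8. The 1600 bp peak was an ordinary one. It held 107 reads in WT, or 3.65 RPM (2.99 to 4.42), at a density of 13.4 reads per 200 bp, and its length equalled the median length of all peaks. The larger peak was thus 2.38 times as dense as its neighbour in WT.

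Both Gata4 peaks had less Cbx2 signal in the K36M library, as did 95.4% of all peaks. The lowest WT density of a listed peak was 9.5 reads per 200 bp. With K36M scaled to the WT depth, 291 of the 2217 peaks (13.1%) reached that value. The larger Gata4 peak did so, at 13.4, and the smaller did not, at 6.16. Whether the peaks were chosen by their WT signal is not known here. Such a choice would favour lower K36M values, also in the shares of all peaks below. This was not tested. The 6000 bp peak held 497 reads in K36M, or 13.7 RPM (12.5 to 15.0), against 32.6 RPM in WT. The K36M/WT ratio was 0.421 (95% exact Clopper-Pearson interval 0.377 to 0.470), a 2.38-fold lower value. The 1600 bp peak held 61 reads in K36M, or 1.68 RPM (1.29 to 2.16), against 3.65 RPM in WT. Its ratio was 0.461 (0.331 to 0.637), a 2.17-fold lower value. At neither peak did the intervals of the libraries overlap. The interval of the smaller peak spans a 2-fold difference, so its counts do not settle on which side of that limit it lies. All intervals cover counting error only, and leave out variation between cultures, immunoprecipitations and libraries.

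**Figure D1:**
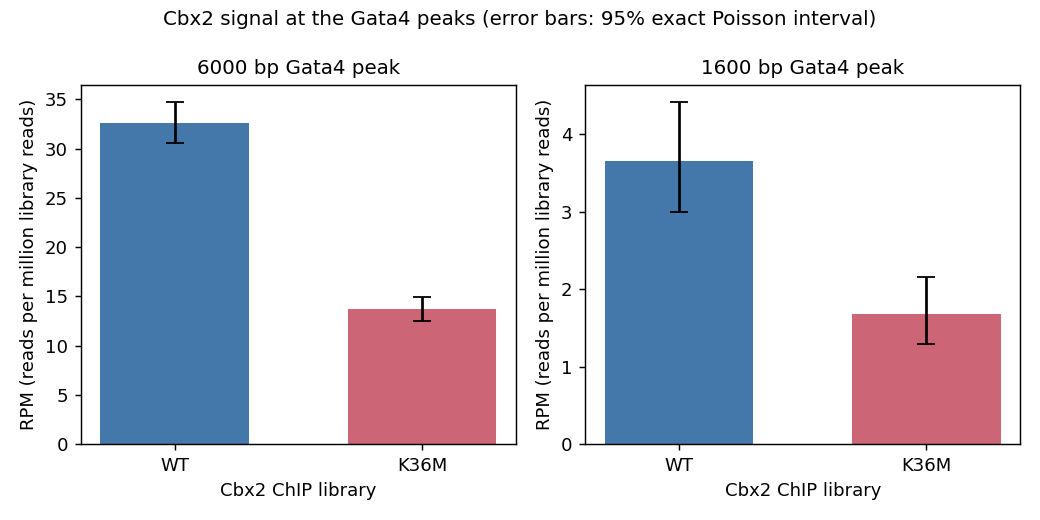
Cbx2 signal (RPM, linear axes that start at 0 and differ between panels) of the 6000 bp and the 1600 bp Gata4 peak in the WT and K36M libraries, 1 library each, with error bars for the 95% exact Poisson interval. Signal went from 32.6 to 13.7 RPM at the larger peak and from 3.65 to 1.68 RPM at the smaller one.

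On the log2 scale, with 0.1 RPM added to each value, the K36M to WT ratio was -1.24 at the 6000 bp peak and -1.07 at the 1600 bp peak. Both passed a limit of 2-fold lower in K36M, as did 75.3% of all peaks, so the count of 2 of 2 is near what the whole table showed. At a limit of 3-fold lower the count was 0 of 2, against 39.9% of all peaks. The median of the Gata4 peaks was -1.16, against -1.45 over all peaks (quartiles -1.81 and -1.004). Of all peaks, 62.9% had a lower log2 ratio than the larger Gata4 peak and 71.8% a lower one than the smaller. These shares carry no interval for counting error, which is wide for the smaller peak. The place of the larger peak depends on the pseudocount: with 1 RPM added instead, it had -1.19 against a median of -0.94 over all peaks, and 33.8% of peaks were lower. With 0.01 RPM added, 67.6% were lower. A pseudocount of 1 RPM is close to the median K36M signal of 1.32 RPM. The direction rests on scaling by library reads: once the libraries were given equal medians over all peaks, which moved that median from -1.45 to -0.022, the values became 0.28 and 0.40. Neither Gata4 peak was then at least 2-fold lower, and of all peaks 3.47% were. Equal medians take out a change shared by most peaks, so these values cannot show whether signal fell throughout.

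Ratios of ratios and shares of reads within the same libraries do not depend on that scaling. The ratio of the larger peak was 0.914 times that of the smaller (95% exact conditional interval 0.648 to 1.30), a difference within counting error. Of the reads in the 2 Gata4 peaks, the larger took 89.9% in WT (95% Wilson interval 88.0 to 91.6%). In K36M it took 89.1% (86.2 to 91.4%). The intervals of the shares overlapped, so a different division of Cbx2 signal between the Gata4 peaks was not detectable at this depth. The log2 ratios of the Gata4 peaks differed by 0.17. Such differences, also between other peaks, depend on the 0.1 RPM added and so on the scaling. Over the 557 pairs of adjacent peaks up to 20 kb apart in the table, the median difference was 0.31 (quartiles 0.14 and 0.56).

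The 2 Gata4 peaks summed held 1061 WT reads and 558 K36M reads, which gave a ratio of 0.425 (0.383 to 0.471). All other peaks summed had a ratio of 0.413. The Gata4 ratio was 1.03 times that of the others (95% interval from the log ratio of reads 0.928 to 1.14), so at this depth no difference from the sum of the table was detectable. A sum gives most weight to the peaks with the most reads and need not stand for a typical one. The median log2 ratio was -1.45 over all peaks and -1.56 in the top quartile of mean RPM. The summed Gata4 peaks were at -1.23. The other 65 peaks of chromosome 14 had a lower summed ratio, 0.314, and the Gata4 ratio was 1.35 times theirs (1.22 to 1.51), beyond counting error. Single peaks of that chromosome varied widely, with a median log2 ratio of -1.52 (quartiles -1.97 and -1.30). The 6000 bp Gata4 peak lay above 50 of the 65 and below 15.

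Among densely covered peaks the larger Gata4 peak held an intermediate place. It belonged to the 111 peaks in the top 5% of WT read density. Of the other 110, 39 had a lower log2 ratio and 71 a higher one, and the median of the 111 was -0.36. Another set of strong peaks, the 555 in the top quartile of the mean RPM of both libraries, had a median of -1.56. The larger Gata4 peak, at -1.24, lay below the first median and above the second. Its K36M density was 16.6 reads per 200 bp, or 13.4 at the depth of the WT library. The smaller Gata4 peak was at 6.16 on the same scale. By density the larger peak ranked 159 of 2217 in K36M, and the smaller moved from rank 1286 in WT to rank 696. These ranks carry no interval for counting error, and the K36M rank of the smaller peak rests on 61 reads.

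**Figure D2:**
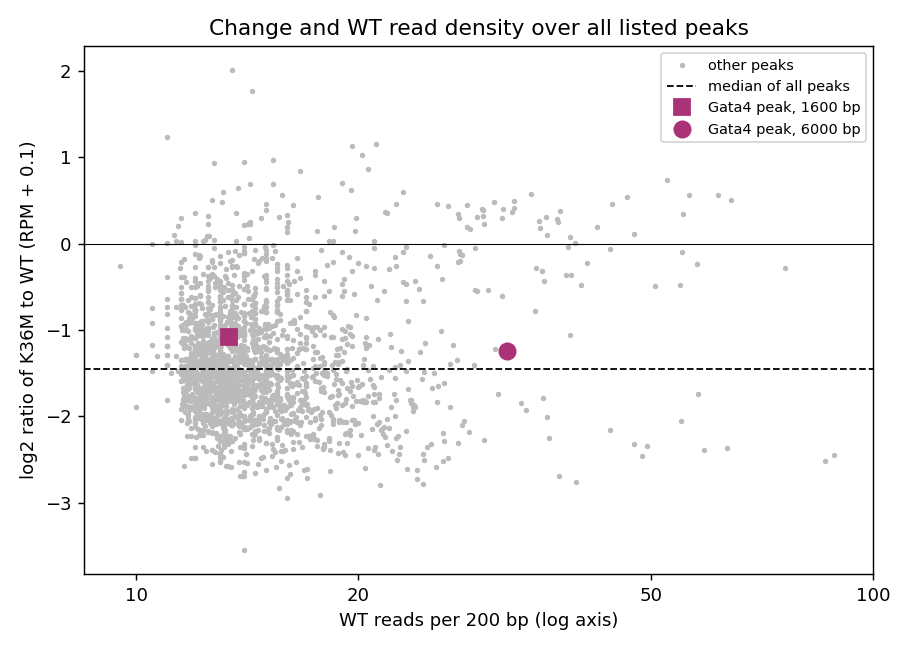
Log2 ratio of K36M to WT (RPM plus 0.1) against WT reads per 200 bp (log axis) for all 2217 peaks, with the Gata4 peaks as large symbols and the median of all peaks, -1.45, as a dashed line. Both Gata4 peaks lie above that line and below 0 at this pseudocount (with 1 RPM the larger lies below the median), the 1600 bp peak within the bulk of peaks and the 6000 bp peak among the dense ones.

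Within 500 kb of the Gata4 window the table listed 1 further peak, as it did for Gata2 and Gata6. For Gata3 and Gata5 it listed 0, so such spacing was not particular to Gata4. The nearest peak on one side lay 400.001 kb from the window, a 400 bp peak starting at 63379600 where 32 WT reads stood against 44 K36M reads and the ratio was 1.11 (0.689 to 1.81). On the other side the nearest lay 538.8 kb away, an 800 bp peak starting at 64438800 where 51 stood against 22 and the ratio was 0.348 (0.201 to 0.585). The Gata4 ratio was 0.383 times that of the first (0.232 to 0.625) and 1.22 times that of the second (0.717 to 2.13), so it was below the first beyond counting error and not distinguishable from the second. The Gata4 pair was the only listed Cbx2 signal in the 1.06 Mb between these flanking peaks. In WT it summed to 36.2 RPM over 7600 bp, against 1.09 RPM at the first flanking peak and 1.74 RPM at the second, which are much shorter. By density the contrast was smaller. In WT the flanking peaks held 16 and 12.75 reads per 200 bp, against 31.8 and 13.4 at the larger and smaller Gata4 peaks. In K36M, before scaling to the WT depth, they held 22 and 5.5, against 16.6 and 7.6.

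The Gata2 window (chromosome 6 from 88110000 to 88180000) held no peak, and its nearest listed neighbour was 304.4 kb away. That peak, 4400 bp long and starting at 88484400, went from 271 WT reads to 92 K36M reads at a ratio of 0.274 (0.214 to 0.349). The Gata6 window (chromosome 18 from 11030000 to 11100000) held no peak either. A 10000 bp peak lay 334.801 kb from it, starting at 10685200, where 1081 WT reads stood against 287 K36M reads and the ratio was 0.214 (0.188 to 0.245). The Gata4 ratio was 1.55 times that of the first (1.19 to 2.03) and 1.98 times that of the second (1.67 to 2.35), differences beyond counting error. Neither of these peaks is assigned to a Gata gene here. The Gata3 window (chromosome 2 from 9740000 to 9830000) was the most isolated, with its nearest listed peak 2.55 Mb away. The Gata5 window, on the same chromosome from 180040000 to 180090000, had its nearest 1.10 Mb away. Chromosome 2 nonetheless had 221 listed peaks, more than chromosome 14 with 67, chromosome 6 with 82 or chromosome 18 with 31.

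**Figure D3:**
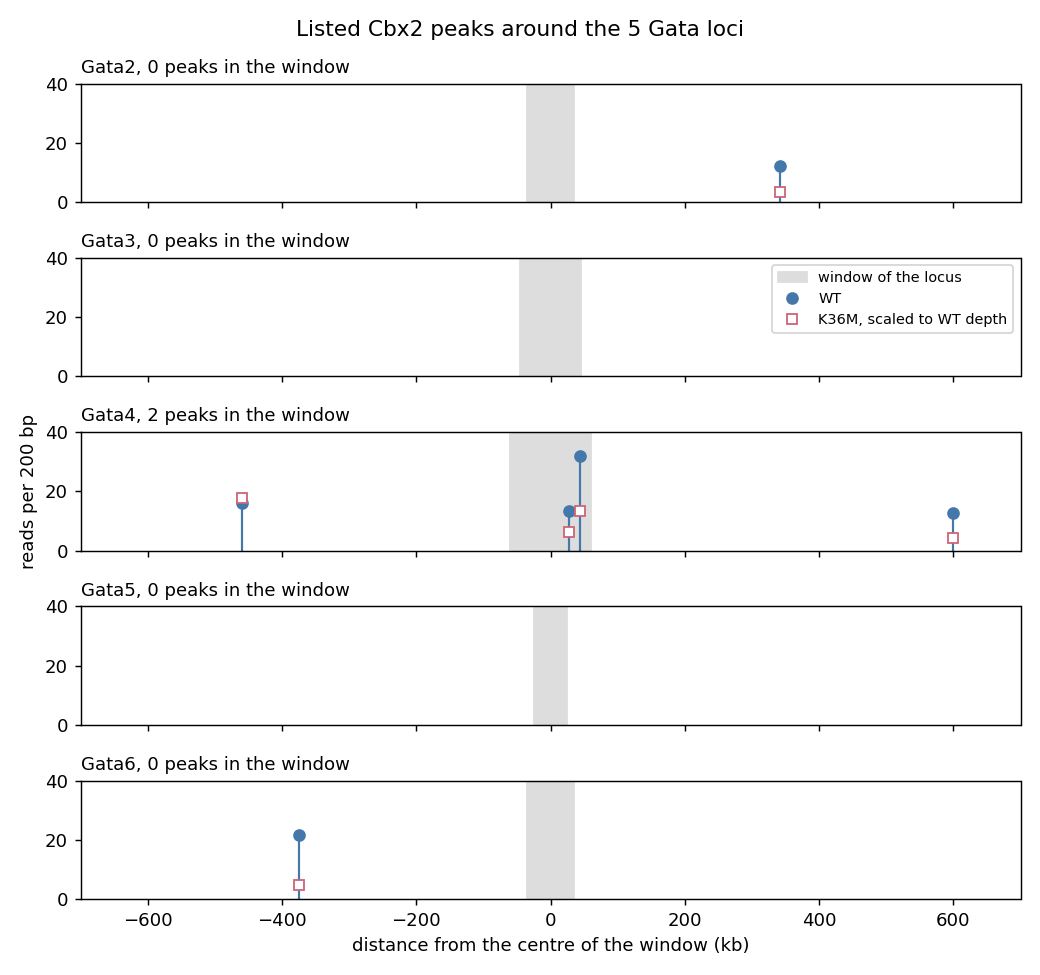
Listed Cbx2 peaks up to 700 kb from the centre of each Gata window (grey), with distance in kb on the x axis and reads per 200 bp on the y axis, for WT (filled circles) and K36M scaled to the WT depth (open squares), 1 library each. Only the Gata4 window holds peaks, at 31.8 and 13.4 reads per 200 bp in WT.

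A window without a peak is not a measurement of 0. The table lists regions with at least 9.5 reads per 200 bp in WT and gives no reads elsewhere, and peaks held a small part of each library, with 98.4% of WT reads and 99.3% of K36M reads outside them. Cbx2 at Gata2, Gata3, Gata5 or Gata6 below the density of a listed peak, or a gain there in K36M alone, could not be assessed. No level and no K36M to WT ratio is therefore given for these 4 genes, and the Gata4 values cannot be set against theirs.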

How the data were processed

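Cbx2 ChIP libraries from WT and K36M cells (1 each) were compared; the input library was not analysed here. Reads were aligned with Bowtie 1.0.0 to mm9, per the submitters' processing notes; the sources used here name neither the peak caller nor the role of the input, and the labels name 2 suppliers of the Cbx2 antibody. The values the authors deposited are headed RPKM but are in RPM: 100% were whole multiples of 1 step per library (within 1e-06 of a read) whatever the peak length, and reads per peak and per library were recovered from that step. The WT column was taken as the WT Cbx2 library because the table is named for Cbx2. Log2 ratios used a pseudocount of 0.1 RPM, which understates changes of weak peaks, and no background was subtracted. Densities are reads per 200 bp. Without molecular identifiers, reads amplified by PCR may stem from the same molecule, so intervals cover counting error only. Calculations used Python with numpy and scipy and were tested on simulated reads. Members, windows and comparisons were chosen with earlier results of these data known. Every member peak, and the nearest peak on each side of a window within 500 kb, was to be named; peaks farther away, the sums over chromosome 14 and the promoters were added after the values were seen. A planned comparison of all pairs of Gata loci could not be made with peaks at 1 locus. Alternative pseudocounts, scalings, limits, filters, locus summaries and a window wider by 100 kb were tried.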

Additional observations from a re-analysis of the deposited data

How the results depend on the processing

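The direction at Gata4 depended on the scaling. Giving both libraries the same signal over all peaks takes out a change shared by most of them. Values scaled in this way place Gata4 among the other peaks and cannot show whether signal fell throughout. With equal medians, equal upper quartiles or equal sums over all peaks in both libraries, in that order, the log2 ratio of the summed locus went from -1.23 to 0.29, 0.27 and 0.040, that of the 6000 bp peak from -1.24 to 0.28, 0.26 and 0.027, that of the 1600 bp peak from -1.07 to 0.40, 0.38 and 0.15, and the median of the 2 peaks from -1.16 to 0.34, 0.32 and 0.090. These scalings multiply K36M by 2.42 to 2.89, and under each of them 0 of the 2 Gata4 peaks were at least 2-fold lower. Of all peaks, 3.47%, 3.83% and 8.39% were, in that order, against 75.3% by RPM. The order against other peaks moved little: with equal medians, 68.4% of peaks had a lower ratio than the 6000 bp peak and 73.1% a lower one than the 1600 bp peak. With a pseudocount of 1, 1 of the 2 peaks was at least 2-fold lower, since the 1600 bp peak moved to -0.79. Of all peaks, 46.2% passed that limit, and the 6000 bp peak then had a higher ratio than 33.8% of peaks instead of 62.9%. At a 3-fold limit the count was 0 of the 2 Gata4 peaks, and 39.9% of all peaks passed it. A pseudocount of 0.01, a 1.5-fold limit, both filters on mean RPM, the strongest peak alone, the median of the peaks and the wider window kept the direction and the count of 2 wherever they applied. No paired analysis was possible because WT and K36M are single libraries, and for that reason no replicate could be left out. The 107 and 61 reads of the smaller peak limit what can be said of it.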
